A study of Capra hircus with 6 samples.

Results

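The genes described here encode the non-collagen matrix of the ovary: small leucine-rich proteoglycans, fibrillins, fibulins and elastin, adhesive and matricellular glycoproteins, laminins and nidogens, and the lysyl oxidases that crosslink collagen and elastin. With them stand PDGFRA and THY1, surface proteins of the mesenchymal cells that make much of this matrix. The list was set by gene name, with earlier results of these data known, and holds 40 genes. Of these, 38 had a value among the 17504 genes measured. MFAP2 and LAMB2 were not analysed here. Whole-ovary RNA was sequenced from 3 Jintang black goats (Capra hircus), described in the labels as prolific, and from 3 Tibetan goats, described as non-prolific, and the study asked how ovarian transcripts differ between the breeds. All 6 goats were in the follicular phase, when follicles grow and the old corpus luteum regresses, and each library came from the ovary of 1 animal. No treatment, age or batch was labelled.

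In connective tissue, proteoglycans such as decorin coat collagen fibrils and set their spacing, fibrillin microfibrils carry elastin and store growth factors of the TGF-beta family, and laminins bound by nidogens form the basement membranes under follicle and vessel walls. Lysyl oxidases then turn lysines of collagen and elastin into crosslinks that stiffen the tissue. In the ovary this matrix fills the stroma and the theca, and it is remodelled as follicles grow, rupture and turn into luteal tissue.

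Levels are given as FPKM, fragments scaled to the length of the transcript and the size of the library, so that levels of different genes can be set side by side. Sums of FPKM per library ran from 602255 to 682801. Absolute depth is unknown, and the spacing of low values put relative depths between 0.925 and 1.028 (Tibetan 1 set to 1). Where 3 values are listed for a breed, they belong to goats 1, 2 and 3 of that breed in this order. A log2 fold change is the Jintang mean of log2(FPKM + 1) less the Tibetan mean; the added 1 makes it too small for genes of low level. P-values come from limma fitted over 13067 genes. Over the libraries INHA (inhibin alpha, a granulosa product) ran from 9.56 to 1194 FPKM and the granulosa factor FOXL2 from 1.75 to 16.0 FPKM. Other granulosa markers reached lower values. FSHR ran from 0 (Tibetan 1) to 10.7 FPKM and CYP19A1 from 0.27 (Jintang 1) to 15.6 FPKM. AMH ran from 0.68 (Tibetan 1) to 44.3 FPKM and HSD17B1 from 0.55 (Tibetan 3) to 23.8 FPKM. The oocyte genes BMP15 and FIGLA were listed at 0 in 2 and 5 of the libraries, both of the BMP15 zeros in Tibetan goats. FIGLA was above 0 only in Tibetan 2, at 0.80 FPKM. GDF9 stood at 0.91, 0.52 and 2.28 FPKM in Jintang ovaries, against 0.44, 3.42 and 2.5 FPKM in Tibetan ovaries. Oocyte genes (9 with a value) summed to 7.52, 4.54 and 24.4 FPKM in Jintang ovaries, against 0.96, 21.4 and 4.56 FPKM in Tibetan ovaries.

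None of the 38 matrix genes passed the test between the breeds. Benjamini-Hochberg adjustment over all genes gave limma adjusted p-values from 0.743 to 0.998 for them, and 0% of all genes were called. At an unadjusted p under 0.05, 6 of the 38 (15.8%) stood higher in Jintang ovaries, where 2.82% of all genes did, and 1 of the 38 (2.63%) lower, where 3.35% did. In either direction that made 7 of the 38, against 6.17% of all genes. The 6 were LUM, FBN1, THBS1, SRPX2, LOX and LOXL2, and the 1 was SRPX. The ovaries of the breeds did not overlap, with every Jintang value above every Tibetan value, in 5 of the 38 (13.2%), against 3.20% of all genes; the opposite order held for 0 of them, against 6.70% of all genes. The log2 fold change was positive in 25 of 38 (65.8%; 41.0% of all genes), and its median was 0.23 over the matrix genes and -0.10 over all genes. Median-ratio scaling moved these medians to 0.35 and 0.02 and turned the split of all genes at an unadjusted p under 0.05, which was 368 higher and 438 lower, to 456 higher and 308 lower. The 38 genes share the same 6 libraries and many share their source cells, so these counts are not independent of each other. The list was also chosen with earlier results of these data known, so its shares only describe it and were not tested. The count of 6 became 2 without Jintang 1, 10 without Jintang 3 and 3 without Tibetan 3. The share of all genes that stood higher in the same fits was 1.49%, 5.28% and 3.49%.

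**Figure D1:**
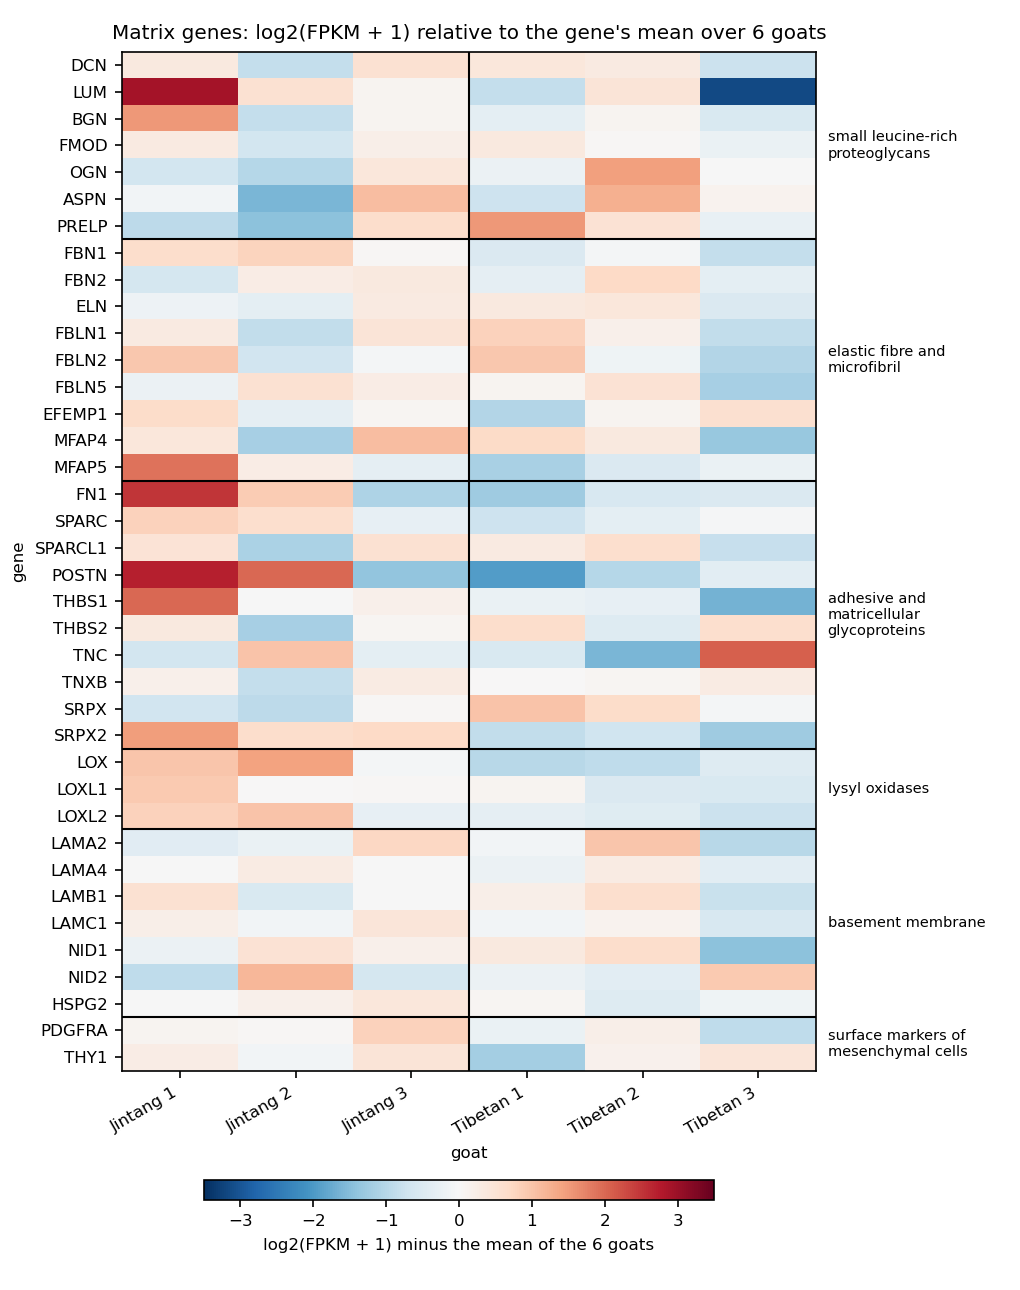
Heat map of the 38 matrix genes (rows, grouped by role) in the 6 goats (columns, Jintang left of Tibetan); colour gives log2(FPKM + 1) minus the gene's mean over the goats, red above and blue below. LUM, FN1, POSTN and THBS1 are reddest in Jintang 1, the proteoglycan rows are mostly blue in Jintang 2, and many elastic fibre and basement membrane rows are bluest in Tibetan 3.

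Decorin (DCN), the proteoglycan that wraps collagen fibrils and binds TGF-beta, was the most abundant of the genes by its median over the goats (1192 FPKM). DCN stood at 1210.5, 531 and 1370.2 FPKM in Jintang ovaries, against 1248, 1174 and 562 FPKM in Tibetan ovaries. The breeds overlapped, with 1 low ovary in each (Jintang 2 and Tibetan 3), and the log2 fold change was 0.033 (SE 0.51).

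Lumican (LUM), which controls the thickness of collagen fibrils, varied most of all 38 genes, 72.7-fold between its highest and lowest ovary. LUM stood at 819, 159 and 116 FPKM in Jintang ovaries, against 60.1, 149 and 11.3 FPKM in Tibetan ovaries. Jintang 1 lay far above the rest and Tibetan 3 far below, while Jintang 2, Jintang 3 and Tibetan 2 lay close together, so the breeds overlapped (log2 fold change 2.36, SE 0.99, limma adjusted p = 0.743). LUM and DCN are next to each other in the ARS1.2 gene table, yet the ratio of LUM to DCN within a goat ran from 0.676 in Jintang 1 to 0.0200 in Tibetan 3. KERA and EPYC, the other proteoglycan genes of that cluster, stayed at or below 0.42 and 0.11 FPKM.

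Biglycan (BGN), the close relative of decorin, had 376, 72.2 and 139 FPKM in Jintang ovaries, against 102, 140.0 and 90.2 FPKM in Tibetan ovaries. Only Jintang 1 stood apart, and the other 5 ovaries of both breeds lay between 72.2 and 140.0 FPKM. Without Jintang 1 the log2 fold change of BGN was -0.12, against 0.51 with it.

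Several other members of the family leaned the other way without passing. PRELP, which ties basement membranes to the collagen around them, stood at 56.2, 39.3 and 167 FPKM in Jintang ovaries, against 308, 152 and 89.3 FPKM in Tibetan ovaries. Jintang 1 and 2 were the lowest ovaries and Tibetan 1 the highest, and Jintang 3 lay above Tibetan 2 and 3 (log2 fold change -1.16, SE 0.61, limma adjusted p = 0.743). Osteoglycin (OGN), a small proteoglycan also called mimecan, had 14.4, 11.0 and 31.0 FPKM in Jintang ovaries, against 19.9, 64.8 and 23.1 FPKM in Tibetan ovaries. Its highest ovary was Tibetan 2 and its lowest Jintang 2, with overlap (log2 fold change -0.83, SE 0.52).

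Asporin (ASPN), which is separated from OGN by 1 gene in the same table, stood at 15.3, 4.71 and 35.7 FPKM in Jintang ovaries, against 9.53, 40.4 and 17.99 FPKM in Tibetan ovaries. As with OGN, Tibetan 2 was highest, Jintang 3 next and Jintang 2 lowest. ECM2, the gene beside ASPN, had its highest value in Tibetan 2 and its lowest in Jintang 2 as well, with 14.9, 5.22 and 21.9 FPKM in Jintang ovaries, against 15.2, 25.5 and 10.9 FPKM in Tibetan ovaries. OMD, which lies between ASPN and OGN, stayed at or below 0.70 FPKM. Fibromodulin (FMOD), the neighbour of PRELP that guides early fibril assembly, kept within 19.4 to 39.3 FPKM in all ovaries. Its log2 fold change was -0.096, and 0.029 with median-ratio scaling. Of the 7 proteoglycan genes, 6 had their lowest value in Jintang 2, and LUM was the exception.

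**Figure D2:**
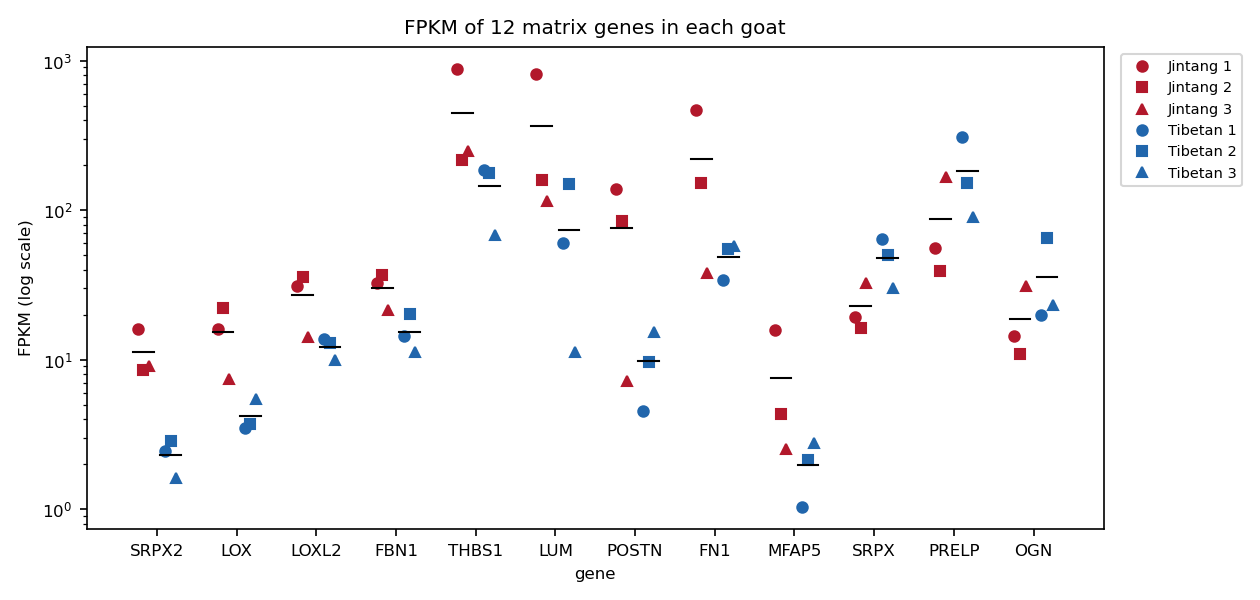
FPKM on a log axis for 12 matrix genes; each point is 1 goat (red, Jintang; blue, Tibetan; circle, square and triangle for goats 1, 2 and 3) and the black bar is the breed mean. All Jintang points lie above all Tibetan points for SRPX2, LOX, LOXL2, FBN1 and THBS1, and the points overlap for the other 7 genes.

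Among elastic fibre genes, fibrillin-1 (FBN1), the main protein of microfibrils in adult tissue, separated the breeds. It stood at 32.4, 36.8 and 21.4 FPKM in Jintang ovaries, against 14.4, 20.1 and 11.3 FPKM in Tibetan ovaries. Jintang 1 and 2 were clearly highest, while Jintang 3 exceeded Tibetan 2 by a small margin. The means were 30.2 ± 7.90 FPKM in Jintang and 15.3 ± 4.43 FPKM in Tibetan ovaries (SD, n = 3 each; log2 fold change 0.94, SE 0.32, limma adjusted p = 0.743).

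Fibrillin-2 (FBN2), the form known from embryonic microfibrils, was lower in level and gave 2.72, 5.79 and 6.27 FPKM in Jintang ovaries, against 3.59, 8.21 and 3.49 FPKM in Tibetan ovaries. The breeds overlapped, with a log2 fold change of -0.016 that was 0.086 with median-ratio scaling. Elastin (ELN), the rubber-like core that microfibrils carry, had 40.6, 36.0 and 57.0 FPKM in Jintang ovaries, against 58.9, 60.3 and 31.9 FPKM in Tibetan ovaries. It varied little, 1.89-fold over all ovaries, and the breeds overlapped (log2 fold change -0.14, SE 0.34).

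MFAP5, a small microfibril-associated glycoprotein, was the lowest gene of the whole list by its median over the goats. It stood at 15.7, 4.32 and 2.53 FPKM in Jintang ovaries, against 1.03, 2.14 and 2.78 FPKM in Tibetan ovaries. Jintang 1 was highest and Jintang 2 next, but Jintang 3 lay below Tibetan 3 (log2 fold change 1.23, SE 0.57, limma adjusted p = 0.743). MFAP4, a microfibril partner of elastin and the other abundant gene of this set beside FBLN1, gave 249, 85.0 and 403 FPKM in Jintang ovaries, against 304, 243 and 75.7 FPKM in Tibetan ovaries. Jintang 2 and Tibetan 3 were the low ovaries, as for DCN, and the other 4 lay between 243 and 403 FPKM.

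Fibulin-1 (FBLN1), which sits in elastic fibres and basement membranes, had 289, 126 and 314 FPKM in Jintang ovaries, against 402, 261 and 127 FPKM in Tibetan ovaries. It was also lowest in Jintang 2 and Tibetan 3, which lay within 2 FPKM of each other, and its log2 fold change of -0.075 was 0.053 with median-ratio scaling. Fibulin-5 (FBLN5), needed to lay elastin onto microfibrils, ranged over 14.8 to 50.5 FPKM, fibulin-2 (FBLN2) over 6.79 to 29.6 FPKM, and EFEMP1, also called fibulin-3, over 6.51 to 22.5 FPKM. The log2 fold changes of these 3 genes were 0.39, 0.14 and 0.26, each within its standard error. Of the 9 elastic fibre genes, 6 had a positive log2 fold change, 0 passed, and 5 were lowest in Tibetan 3.

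Among the adhesive and matricellular genes, the breeds stood farthest apart, relative to the spread between goats, for SRPX2, a secreted sushi-repeat protein known as a ligand of the urokinase receptor. It stood at 16.0, 8.50 and 9.11 FPKM in Jintang ovaries, against 2.44, 2.85 and 1.62 FPKM in Tibetan ovaries. The lowest Jintang ovary was close to 3 times the highest Tibetan one. Means were 11.2 ± 4.15 FPKM in Jintang and 2.30 ± 0.626 FPKM in Tibetan ovaries (SD, n = 3 each; log2 fold change 1.85, SE 0.33, limma adjusted p = 0.743). Breed held 89.8% of the variance of SRPX2 among the 6 ovaries on the log2 scale.

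Its relative SRPX, another sushi-repeat protein, ran in the opposite direction. SRPX had 19.3, 16.4 and 32.5 FPKM in Jintang ovaries, against 63.6, 49.8 and 30.01 FPKM in Tibetan ovaries. Jintang 1 and 2 lay below every Tibetan ovary, and Jintang 3 lay just above Tibetan 3. SRPX was the 1 gene lower in Jintang ovaries at an unadjusted p under 0.05 (log2 fold change -1.04, SE 0.37, limma adjusted p = 0.743). After libraries were scaled to TPM, every Jintang value of SRPX lay below every Tibetan value, whereas with median-ratio scaling the breeds overlapped. The unadjusted limma p of SRPX was above 0.05 in the fits without Jintang 1, Jintang 2, Tibetan 1 or Tibetan 2. It was below 0.05 without Jintang 3 or Tibetan 3, and 0.054 with the replicate block.

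Thrombospondin-1 (THBS1), an adhesive protein that releases TGF-beta from its latent form, stood at 880.5, 215 and 247 FPKM in Jintang ovaries, against 187, 178 and 68.6 FPKM in Tibetan ovaries. The breeds did not overlap, although Jintang 1 was far above the others and Jintang 2 and 3 exceeded Tibetan 1 by less (log2 fold change 1.45, SE 0.61, limma adjusted p = 0.743). Thrombospondin-2 (THBS2), which lies next to SMOC2 in the gene table, had 63.7, 22.1 and 52.3 FPKM in Jintang ovaries, against 76.9, 36.6 and 76.0 FPKM in Tibetan ovaries. THBS2 overlapped, with Jintang 2 lowest and Tibetan 1 and 3 highest (log2 fold change -0.50, SE 0.46).

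Periostin (POSTN), a collagen- and tenascin-binding protein of tissue repair, gave 138, 84.0 and 7.15 FPKM in Jintang ovaries, against 4.51, 9.61 and 15.3 FPKM in Tibetan ovaries. Jintang 1 and 2 were more than 5 times the level of each of the other ovaries, and Jintang 3 lay among the Tibetan goats (log2 fold change 2.22, SE 0.97, limma adjusted p = 0.743). Fibronectin (FN1), the fibril-forming adhesive protein, shared this order, with 467, 151 and 37.9 FPKM in Jintang ovaries, against 34.1, 55.0 and 57.5 FPKM in Tibetan ovaries. Again Jintang 3 lay within the Tibetan range (log2 fold change 1.53, SE 0.78, limma adjusted p = 0.743).

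SPARC, a collagen-binding protein abundant in remodelling tissue, was the second most abundant gene of the list by its median. It stood at 2073, 1789.8 and 965 FPKM in Jintang ovaries, against 713, 931 and 1154 FPKM in Tibetan ovaries. Jintang 1 and 2 were highest, and Jintang 3 lay between Tibetan 2 and Tibetan 3 (log2 fold change 0.74, SE 0.43, limma adjusted p = 0.743). Its relative SPARCL1, also called hevin, had 348, 114 and 359.6 FPKM in Jintang ovaries, against 307, 372 and 139.7 FPKM in Tibetan ovaries. SPARCL1 had the same low ovaries as MFAP4 and FBLN1, Jintang 2 and Tibetan 3, and its log2 fold change of -0.056 was 0.073 with median-ratio scaling.

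Tenascin-C (TNC), an anti-adhesive glycoprotein of wounds and tumours, was high in 1 ovary of each breed. It stood at 3.59, 13.3 and 4.67 FPKM in Jintang ovaries, against 3.88, 1.37 and 29.4 FPKM in Tibetan ovaries. Tibetan 3 and Jintang 2 were highest and the breeds overlapped, with a log2 fold change of 0.027 (SE 0.88). Tenascin-X (TNXB), which stabilises collagen in skin, ranged over 2.90 to 7.59 FPKM with a log2 fold change of -0.25. Its value is uncertain where a partial copy of TNXB shares reads, as it does in the human genome. Of the 10 adhesive and matricellular genes, 6 had a positive log2 fold change and 0 passed.

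All 3 lysyl oxidase genes of the list had higher means in Jintang ovaries, and the breeds did not overlap for LOX and LOXL2. LOXL3 and LOXL4 are not among these 3. LOXL3 had 12.7, 7.6 and 22.0 FPKM in Jintang ovaries, against 32.3, 14.9 and 11.1 FPKM in Tibetan ovaries. Its log2 fold change was -0.41 (SE 0.48), and that of LOXL4 was 0.15 (SE 1.14), both with overlap. LOX, the copper enzyme that starts collagen and elastin crosslinks, stood at 16.1, 22.1 and 7.38 FPKM in Jintang ovaries, against 3.47, 3.69 and 5.43 FPKM in Tibetan ovaries. Jintang 2 was highest, and Jintang 3 lay just above Tibetan 3. The means were 15.2 ± 7.41 FPKM in Jintang and 4.197 ± 1.07 FPKM in Tibetan ovaries (SD, n = 3 each; log2 fold change 1.54, SE 0.41, limma adjusted p = 0.743). Breed held 73.4% of its variance.

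LOXL2, which crosslinks collagen IV of basement membranes, had 31.1, 35.8 and 14.2 FPKM in Jintang ovaries, against 13.8, 12.9 and 9.90 FPKM in Tibetan ovaries. The gap between Jintang 3 and Tibetan 1 was under 1 FPKM, and with TPM scaling the breeds overlapped (log2 fold change 1.00, SE 0.37, limma adjusted p = 0.743). LOXL1, the enzyme tied to elastic fibre upkeep, was the most abundant of the 3 with 141, 74.9 and 76.4 FPKM in Jintang ovaries, against 79.0, 52.0 and 51.0 FPKM in Tibetan ovaries. Jintang 1 was highest, and Jintang 2 and 3 lay just below Tibetan 1 (log2 fold change 0.64, SE 0.34, limma adjusted p = 0.743).

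**Figure D3:**
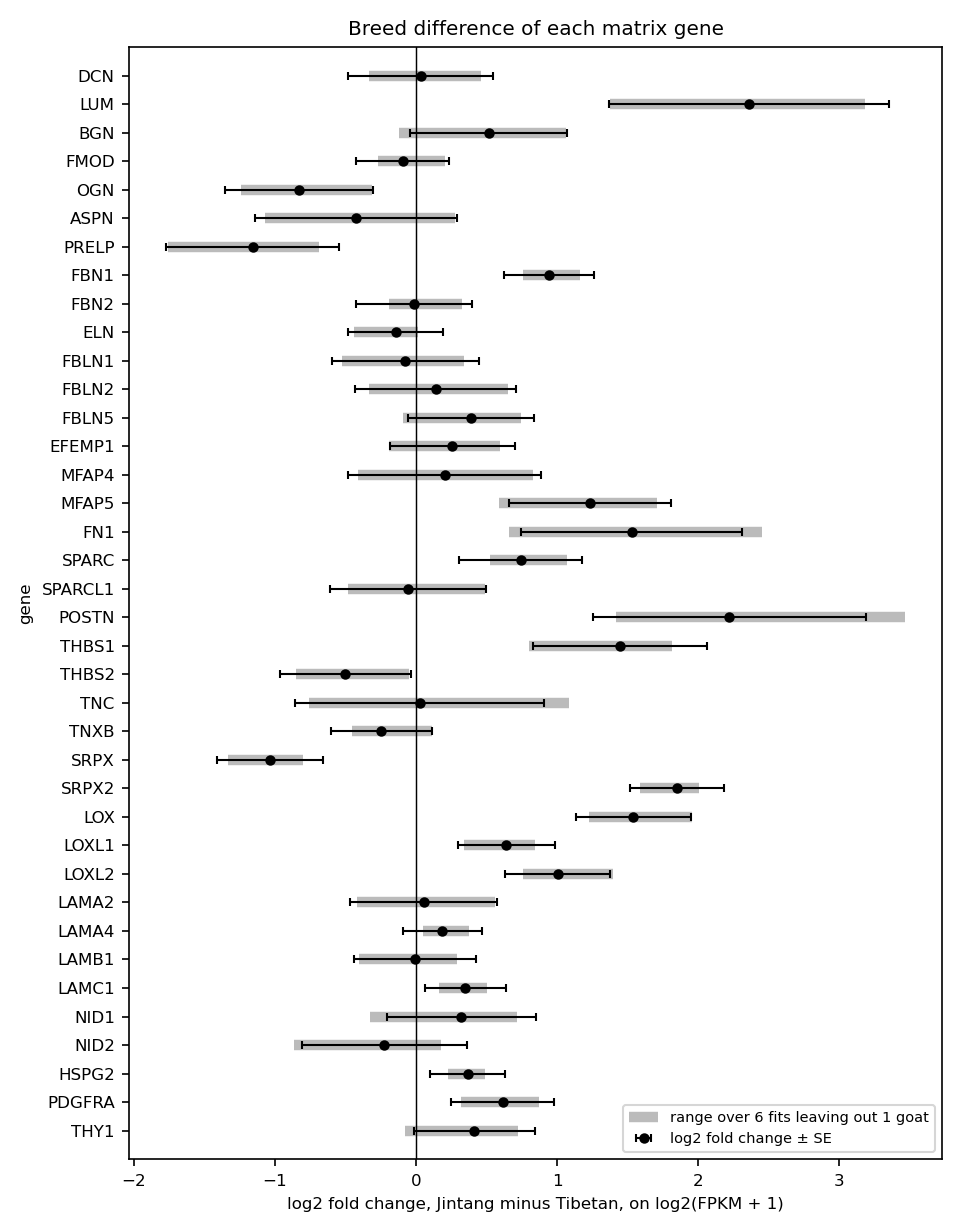
Log2 fold change of each matrix gene, Jintang minus Tibetan (black point, bar ± SE), with the range over the 6 fits that leave out 1 goat (grey bar). The grey bars of SRPX2, LOX, LOXL2, FBN1, THBS1, LUM, POSTN and FN1 stay right of 0, those of SRPX, PRELP, OGN and THBS2 stay left, and those of 19 genes cross it.

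The basement membrane genes had log2 fold changes between -0.23 (NID2) and 0.37 (HSPG2). Laminin alpha-4 (LAMA4), the alpha chain of vessel basement membranes, had 13.4, 16.9 and 13.6 FPKM in Jintang ovaries, against 11.7, 16.8 and 10.2 FPKM in Tibetan ovaries. This 1.65-fold range over the 6 ovaries was the narrowest of the 38 genes. Laminin beta-1 (LAMB1), the most abundant laminin gene here, gave 183, 87.7 and 125 FPKM in Jintang ovaries, against 146, 191 and 72.6 FPKM in Tibetan ovaries. Tibetan 3 and Jintang 2 were again the low ovaries, and the log2 fold change of -0.005 was 0.12 with median-ratio scaling.

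Laminin gamma-1 (LAMC1), the chain shared by most laminins, ranged over 22.1 to 44.5 FPKM. Laminin alpha-2 (LAMA2), known from muscle basement membrane, ranged over 7.06 to 30.1 FPKM. Perlecan (HSPG2), the large heparan sulphate proteoglycan of basement membranes, ranged over 32.4 to 59.0 FPKM. Their log2 fold changes were 0.35, 0.054 and 0.37, and the breeds overlapped in each. With median-ratio scaling every Jintang value of HSPG2 lay above every Tibetan value.

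The 2 nidogens, which link laminin to collagen IV, did not vary together. NID2 stood at 51.6, 218 and 63.4 FPKM in Jintang ovaries, against 84.1, 74.3 and 184 FPKM in Tibetan ovaries. Jintang 2 and Tibetan 3 were the high ovaries, and the other 4 lay between 51.6 and 84.1 FPKM. NID1 had 29.7, 49.6 and 38.8 FPKM in Jintang ovaries, against 43.8, 53.7 and 11.99 FPKM in Tibetan ovaries. In Tibetan 3 NID1 was at its lowest, where NID2 was near its highest. Of the 7 basement membrane genes, 5 had a positive log2 fold change, 0 passed, and 5 were lowest in Tibetan 3.

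PDGFRA, the receptor for platelet-derived growth factor on stromal and thecal cells, had 50.2, 48.2 and 82.4 FPKM in Jintang ovaries, against 40.2, 54.2 and 24.8 FPKM in Tibetan ovaries. Jintang 3 was highest and Tibetan 3 lowest, and Tibetan 2 lay above Jintang 1 and 2 (log2 fold change 0.61, SE 0.36); with median-ratio scaling the breeds did not overlap. THY1, a surface glycoprotein of fibroblasts, stood at 24.2, 18.7 and 28.0 FPKM in Jintang ovaries, against 8.29, 22.4 and 27.1 FPKM in Tibetan ovaries. The single low ovary was Tibetan 1, without which the log2 fold change of 0.41 was -0.075.

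Ratios between related genes in the same ovary do not depend on how a library is scaled. The ratio of SRPX2 to SRPX was 0.827, 0.520 and 0.280 in Jintang ovaries, against 0.0383, 0.0573 and 0.0540 in Tibetan ovaries. No Jintang ovary came below any Tibetan one, and the mean log2 ratio was -1.02 in Jintang and -4.35 in Tibetan goats, a difference of 3.33 (pooled SD 0.60). The pair was set with the values of both genes known, so the ratio is a description and was not tested.

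For ELN over FBN1 the ratio was 1.25, 0.980 and 2.66 in Jintang ovaries, against 4.08, 3.01 and 2.81 in Tibetan ovaries. Jintang ovaries lay below all Tibetan ovaries, with Jintang 3 close to Tibetan 3. LOX itself held a larger part of the lysyl oxidase transcripts in some ovaries, since LOXL1 over LOX was 8.75, 3.39 and 10.3 in Jintang ovaries, against 22.8, 14.1 and 9.39 in Tibetan ovaries. Here the breeds overlapped, because Tibetan 3 lay below Jintang 3. NID2 over NID1 was 1.74, 4.39 and 1.63 in Jintang ovaries, against 1.92, 1.38 and 15.3 in Tibetan ovaries, with Tibetan 3 far above the rest. THBS2 over THBS1 was 0.0723, 0.103 and 0.212 in Jintang ovaries, against 0.412, 0.206 and 1.11 in Tibetan ovaries, and Tibetan 3 was again highest. The ratios of FBN2 to FBN1, BGN to DCN, LOXL2 to LOX and LAMA4 to LAMA2 overlapped between the breeds.

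**Figure D4:**
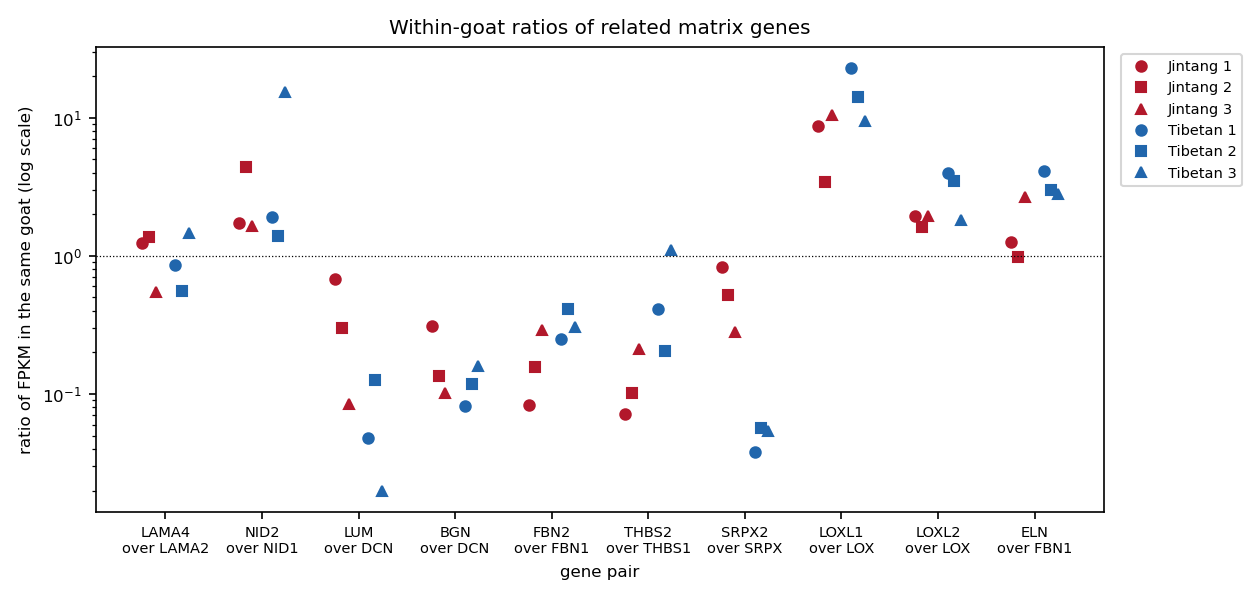
Ratio of the FPKM of 2 related matrix genes in the same goat, on a log axis, for 10 gene pairs (red, Jintang; blue, Tibetan; circle, square and triangle for goats 1, 2 and 3; dotted line at 1). The red points lie above the blue ones for SRPX2 over SRPX and below them for ELN over FBN1, and the colours mix in the other 8 pairs.

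Goats of the same breed differed widely in these genes. The median range of a matrix gene over the 6 ovaries was 1.75 on the log2 scale, against 1.15 for all genes tested, and breed held a median of 14.3% of its variance, against 16.9% for all genes. Breed held over 50% of the variance in 5 of the 38 (13.2%; 12.7% of all genes), namely SRPX2, LOX, FBN1, SRPX and LOXL2. The added 1 FPKM compresses the range of low genes, and no matrix gene was below 1 FPKM in any ovary. Tibetan 3 was the lowest ovary for 16 of the 38 (42.1%; 9.82% of all genes) and the highest for 1, TNC. Jintang 2 was lowest for 11 (28.9%; 25.9% of all genes), and Jintang 1 was highest for 10 (26.3%; 12.6% of all genes). Jintang 3 was lowest for 0 of them, against 5.31% of all genes.

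By summed level, the adhesive and matricellular genes held 4015, 2417 and 1723 FPKM in Jintang ovaries, against 1399, 1642 and 1579 FPKM in Tibetan ovaries. The 3 lysyl oxidases of the list, without LOXL3 and LOXL4, together held 188, 133 and 98.0 FPKM in Jintang ovaries, against 96.2, 68.6 and 66.3 FPKM in Tibetan ovaries. In both sums every Jintang ovary lay above every Tibetan one, with Jintang 1 highest. SPARC was the largest part of the adhesive sum in every ovary, and the breeds overlapped in the sum of the other adhesive genes. In the lysyl oxidase sum Jintang 3 exceeded Tibetan 1 by less than 2 FPKM. As a share of the FPKM of the library neither order held: the adhesive genes took 0.257% in Jintang 3 against 0.259% in Tibetan 3, and the lysyl oxidases 0.0146% in Jintang 3 against 0.0160% in Tibetan 1. The proteoglycan sum overlapped, with 2529, 836 and 1894 FPKM in Jintang ovaries, against 1786, 1752 and 819.8 FPKM in Tibetan ovaries, and so did the elastic fibre sum, with 711, 364 and 876 FPKM in Jintang ovaries, against 856, 673 and 295 FPKM in Tibetan ovaries. In bulk tissue, fewer cells of a type and less RNA per cell cannot be told apart.

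Some marker sums of other cell types were high in the same ovaries as several of these genes, and no correlation was computed. Luteal markers (8 of 11 listed symbols had a value) summed to 6510.2, 23998 and 559.6 FPKM in Jintang ovaries, against 388, 610.3 and 3052 FPKM in Tibetan ovaries. Jintang 1 and 2, the high ovaries for POSTN, FN1, LOX and LOXL2, were also high for these markers, and Tibetan 3 came next. The order of the ovaries was not the same throughout. POSTN and FN1 were higher in Jintang 1 than in Jintang 2, unlike the luteal sum, and LOXL2 was lowest in Tibetan 3. TIMP1, which other cells make too, held most of the sum in Jintang 1, while STAR, the cholesterol carrier of steroid-making cells, stood at 139, 3130.3 and 30.8 FPKM in Jintang ovaries, against 8.91, 28.6 and 139 FPKM in Tibetan ovaries. Endothelial markers (11 of 12 listed had a value) summed to 464, 414 and 245 FPKM in Jintang ovaries, against 212, 340.4 and 221 FPKM in Tibetan ovaries, again with Jintang 1 and 2 highest. Of the 11, 9 had their highest value in 1 of these 2 ovaries, among them PECAM1 and CDH5, whereas KDR and EMCN were lowest in Jintang 1 and highest in Tibetan 2. Macrophage markers (11 of 12, among them CD68, MRC1 and CSF1R) summed to 1791, 203 and 453 FPKM in Jintang ovaries, against 106, 323 and 201 FPKM in Tibetan ovaries, and all 11 were highest in Jintang 1, as were LUM, BGN, FN1, POSTN and THBS1.

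In Tibetan 3, the low ovary for many matrix genes, the summed level of the granulosa markers (10 of 10) was at its highest, with sums of 585, 322 and 528 FPKM in Jintang ovaries, against 370.2, 672 and 1454 FPKM in Tibetan ovaries. INHA made up most of the sum in Tibetan 3, and CYP19A1 and INHBB were also highest there, whereas FOXL2, HSD17B1 and INHBA were at their lowest. AMH stood at 1.40, 1.99 and 44.3 FPKM in Jintang ovaries, against 0.680, 20.7 and 0.950 FPKM in Tibetan ovaries. FSHR was listed at 0 in Tibetan 1. Smooth muscle and pericyte markers (12 of 12, among them ACTA2, MYH11 and TAGLN) summed to 4070.2, 2214 and 8251 FPKM in Jintang ovaries, against 8405, 4293 and 5886 FPKM in Tibetan ovaries, lowest in Jintang 2, where 6 of the 7 proteoglycans were lowest too. Surface epithelium markers (8 with a value, of 11) summed to 26.0, 278 and 29.99 FPKM in Jintang ovaries, against 46.6, 32.7 and 149 FPKM in Tibetan ovaries, and theca markers (4 of 5, of which CYP11A1 and LHCGR are also on the luteal list) to 526, 6030.0 and 226 FPKM in Jintang ovaries, against 76.7, 249 and 1687 FPKM in Tibetan ovaries. Both sums were highest in Jintang 2 and Tibetan 3, as were NID2 and TNC. In Jintang 2 each rested on 1 gene, KRT18 with 243 FPKM and CYP11A1 with 5995 FPKM, while the theca enzyme CYP17A1 stood at 1.99, 4.24 and 103 FPKM in Jintang ovaries, against 16.3, 152 and 719 FPKM in Tibetan ovaries. The part of these cell types in the matrix results was not tested.

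**Figure D5:**
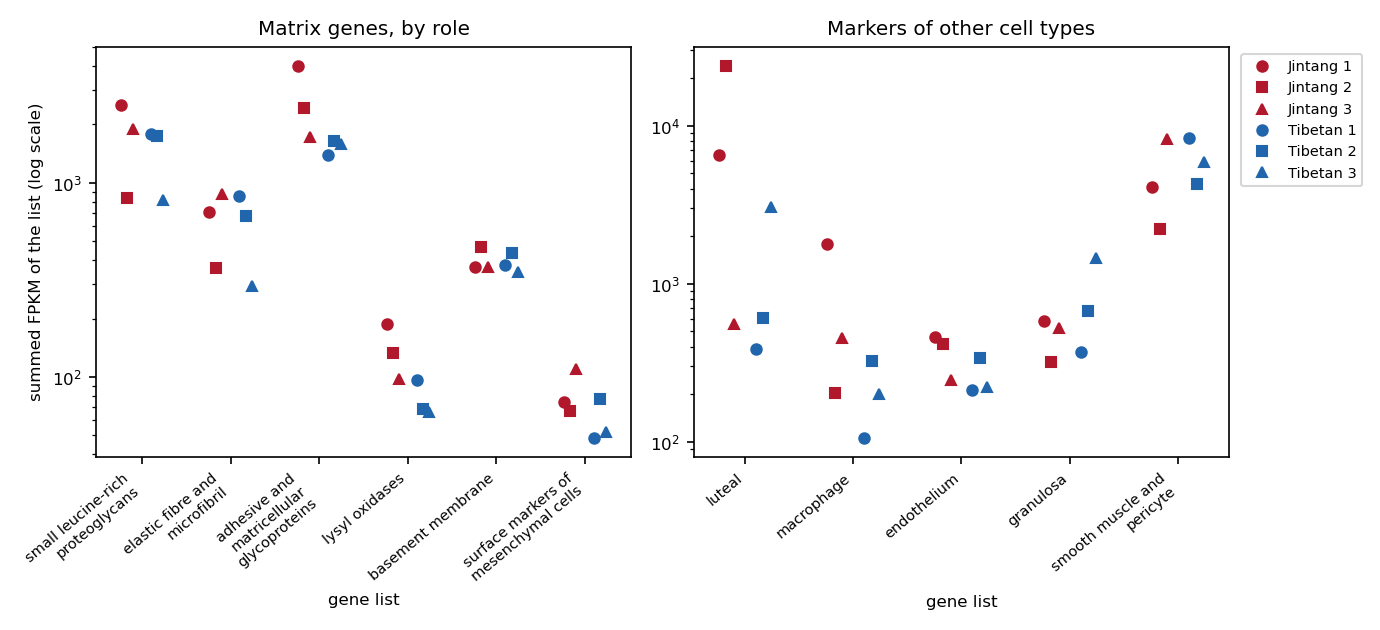
Summed FPKM on a log axis of the matrix genes by role (left) and of marker lists of other cell types (right); each point is 1 goat (red, Jintang; blue, Tibetan; circle, square and triangle for goats 1, 2 and 3). Red lies above blue for the adhesive glycoproteins and the lysyl oxidases, an order that is lost when the sums are taken as a share of the library, while luteal and macrophage sums spread widely within the Jintang goats.

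Other genes of the same matrix and its receptors gave no call either. Of 18 other proteoglycan genes tested, 0 passed, 9 had a positive log2 fold change and the median was 0.0062. Versican (VCAN), the large hyaluronan-binding proteoglycan, led them with 121, 51.0 and 57.4 FPKM in Jintang ovaries, against 9.72, 34.7 and 33.9 FPKM in Tibetan ovaries, and all Jintang ovaries lay above all Tibetan ones (log2 fold change 1.60, SE 0.54, limma adjusted p = 0.743). Glypican-4 (GPC4), a heparan sulphate proteoglycan of the cell surface, was its opposite, with 5.39, 5.24 and 7.79 FPKM in Jintang ovaries, against 9.33, 9.32 and 12.8 FPKM in Tibetan ovaries (log2 fold change -0.69, SE 0.28). Of 18 other genes listed under elastic fibres, 0 passed and 6 were positive (median -0.11, and -0.10 over all genes). Those with the smallest p were FBLN7, at a log2 fold change of 0.88, and MFAP1, at -0.39. MFAP1 stands on that list for its name only and is not read here as a fibre gene.

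Of 24 other adhesive and matricellular genes, 0 passed and 14 were positive (median 0.035). TGFBI, a collagen-binding protein induced by TGF-beta and a relative of periostin, stood at 127, 34.3 and 23.9 FPKM in Jintang ovaries, against 7.76, 13.2 and 7.35 FPKM in Tibetan ovaries. The breeds did not overlap (log2 fold change 2.25, SE 0.58, limma adjusted p = 0.743). SMOC2, a SPARC-related protein and the table neighbour of THBS2, lay the other way without overlap, with 9.95, 11.7 and 30.5 FPKM in Jintang ovaries, against 58.9, 38.2 and 45.0 FPKM in Tibetan ovaries (log2 fold change -1.54, SE 0.42).

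Among 20 other genes listed under crosslinking and collagen modification, 0 passed and 14 were positive (median 0.16), led by the prolyl 3-hydroxylases P3H1 (log2 fold change 0.60, SE 0.25, without overlap) and P3H2 (log2 fold change 1.27, SE 0.59). Not all genes of that list are enzymes, since it also holds the collagen chaperone SERPINH1. Of 11 other basement membrane genes, 0 passed and 7 were positive (median 0.19), with log2 fold changes of 1.45 for COL15A1 and -0.74 for the laminin chain LAMB3. Of 27 matrix receptors, 0 passed and 18 were positive (median 0.48). The integrin chain ITGAV, part of receptors for fibronectin and periostin, led them with 91.4, 110.2 and 27.5 FPKM in Jintang ovaries, against 11.4, 26.6 and 17.6 FPKM in Tibetan ovaries. Its breeds did not overlap (log2 fold change 1.84, SE 0.54, limma adjusted p = 0.743), while CD36, a thrombospondin receptor, overlapped (log2 fold change 2.40, SE 1.02). Of 15 collagen chains, 0 passed and 9 were positive (median 0.42), with log2 fold changes of 1.204 for COL1A1 and 1.11 for COL3A1.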

How the data were processed

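For every goat the authors deposited FPKM values of 17504 genes under NCBI GeneIDs, per the file headers. Per the labels' protocols, TRIzol was used to extract the RNA and an NEBNext kit to make libraries. TopHat2 2.0.10, Bowtie2 2.1.0 and RSEM 1.2.0 are listed in the submitters' processing notes without roles; for build, annotation and strand, the sources used here give nothing. FPKM is relative within a library, so a few abundant genes can lower the others; the 10 highest genes held 7.19% to 9.59% of a library. A table of the whole series with the same 6 columns was not used.

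Symbols came from a RefSeq gene table (ARS1.2), which matched 16459 IDs by GeneID and 9 by accession; 1036 had no match. From it come also the neighbouring genes. All 38 genes were at 1 FPKM or more in every library, so the filter below removed none of them.

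The 13067 genes that reached 1 FPKM in 3 or more libraries were fitted with limma 3.58.1 in R 4.3.3 (lmFit, eBayes with trend) on log2(FPKM + 1), breed as the only term, 2-sided, Benjamini-Hochberg adjustment, threshold 0.05. On simulated data with this design (13067 genes, 50 genes changed per size), 6%, 64%, 76% and 92% of genes with log2 fold changes of 1, 2, 3 and 4 were recovered, with 2 false calls. The changed genes were drawn from those with a mean log2(FPKM + 1) above 3, so recovery of lower genes, SRPX2 and MFAP5 among them, was not tested. Noise was drawn for each gene on its own, without shifts of a goat that many genes share. Within a breed, the median SD on the log2 scale was 0.655 (Jintang) and 0.621 (Tibetan) for the 38 genes. For all genes tested it was 0.400 and 0.378. Recovery at the wider spread of the 38 genes was not tested. P-values measure the spread between these animals. The labels do not say that same-numbered goats were paired. Their deviations from the breed mean correlated at -0.018, -0.21 and -0.47 across genes, and those of other pairs at -0.336 to 0.454. With 3 goats per breed these values constrain each other, so they cannot settle whether goats were paired. The rule named, outside the 38 genes, the 2 members of each related list with the smallest p, genes neighbouring a listed gene, and leading cell type markers. The 38 genes, lists and rule were chosen with earlier results of these data known. Tables and figures were made with Python 3.11.15, pandas 2.3.3, numpy 2.4.6 and matplotlib 3.10.9.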

Additional observations from a re-analysis of the deposited data

How the results depend on the processing

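Over 13 alternatives (pseudocount 0.1, no filter, a filter of 5 FPKM, median-ratio and TPM scaling, no trend, the replicate block, and each goat left out), 0 of the 38 genes passed in any; the smallest limma adjusted p was 0.0873, for POSTN without Jintang 3. SRPX2 and LOX had an unadjusted p under 0.05 in all 13. With a goat left out, all genes called ran from 0 to 12 (without Jintang 3). Matrix genes with an unadjusted p under 0.05 ran from 2 to 10 higher and from 0 to 3 lower in Jintang. Over all genes, from 158 to 675 (1.23% to 5.28%) stood higher and from 154 to 1186 (1.2% to 9.29%) lower. Matrix genes without overlap ran from 6 to 10 above and from 0 to 3 below. Fewer goats make such an order easier to reach. Its share over all genes was not counted in these fits, so these counts cannot be set against it. TPM scaling gave 1 gene below without overlap, SRPX. The replicate block gave 0 genes lower at an unadjusted p under 0.05 and changed no call; all genes at that threshold numbered 581 with it and 806 without. The median of the matrix genes ran from 0.10 (without Tibetan 3) to 0.47 (without Jintang 2). Of the 38 log2 fold changes, 19 kept their sign throughout. The other 19 turned in at least 1 fit without a goat, with ranges of -0.34 to 0.46 for DCN, -0.12 to 1.06 for BGN, -0.27 to 0.20 for FMOD, -1.07 to 0.27 for ASPN, -0.19 to 0.32 for FBN2, -0.44 to 0.011 for ELN, -0.52 to 0.34 for FBLN1, -0.34 to 0.65 for FBLN2, -0.096 to 0.74 for FBLN5 and -0.19 to 0.59 for EFEMP1. For the rest they were -0.41 to 0.83 for MFAP4, -0.48 to 0.49 for SPARCL1, -0.76 to 1.08 for TNC, -0.45 to 0.11 for TNXB, -0.42 to 0.56 for LAMA2, -0.40 to 0.29 for LAMB1, -0.32 to 0.71 for NID1, -0.86 to 0.18 for NID2 and -0.075 to 0.72 for THY1. Median-ratio scaling, which raised the median of all genes by more than 0.1, turned 5 of these 19 to 0.029 (FMOD), 0.086 (FBN2), 0.053 (FBLN1), 0.073 (SPARCL1) and 0.12 (LAMB1); the cause was not tested beyond that shift. Absolute depth is unknown, so no counting interval can be given, and 3 goats per breed limit what the test can call.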

Other observations

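The matrix genes LOXL4 and SERPINH1, outside the list, were high in Jintang 2 and Tibetan 3, the 2 ovaries with the highest levels of NID2 and TNC. They, LOXL3, COL4A1 and IBSP were chosen after their values were seen and are given as values with no test. LOXL4, a lysyl oxidase outside the 3 of the list, stood at 1.09, 31.2 and 2.23 FPKM in Jintang ovaries, against 1.67, 1.71 and 20.9 FPKM in Tibetan ovaries. SERPINH1, the collagen chaperone HSP47, had 367, 1128 and 479 FPKM in Jintang ovaries, against 565, 359 and 1238 FPKM in Tibetan ovaries. In both genes Jintang 2 and Tibetan 3 stood above the other 4 ovaries. The basement membrane collagen chain COL4A1 was high in Jintang 1 as well, with 416, 566 and 145 FPKM in Jintang ovaries, against 117, 137 and 637 FPKM in Tibetan ovaries. IBSP, a bone matrix sialoprotein, stood at 44.7 FPKM in Jintang 2 and at 3.78 FPKM or less in the other 5 ovaries, and was listed at 0 in Tibetan 3.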
